A study of Mus musculus with 4 samples.

Results

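The genes described here are 10 transcription factors that set the identity of lymphoid cells: *Gata3*, *Rora*, *Runx1*, *Runx3*, *Tcf7*, *Id2*, *Sox4*, *Tox2*, *Tbx21* and *Eomes*. They were chosen by name, with earlier results of these data known. Their rows were taken from 2 marker tables that together held 3488 genes. Each table held 8 of the 10 genes, and 6 genes were in both. *Runx1* and *Runx3* had no row in the table of cell types, and *Tbx21* and *Eomes* had none in the table of ILC2 subclusters.

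The study sorted group 2 innate lymphoid cells (ILC2s) from liver and lung. The mice were wild type, of the BALB/c strain and 8 weeks old, and were taken after injections into the peritoneum on each of 5 days. Each injection held either PBS or IL-33 made as a recombinant protein (rIL-33, 0.5 µg), a cytokine that activates ILC2s through its receptor ST2. Liver and lung after PBS, and both organs after rIL-33, gave 4 groups, each with 1 library of single cells from pooled mice. The sort kept cells without lineage markers, CD3e and TCRb among them, that carried CD127, Thy1 and ST2. The tables pooled all 4 libraries, so no value belonged to 1 treatment or organ, no replicate spread could be given, and no test was run; every comparison here describes 1 pool of cells.

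ILC2s live in tissues, lack antigen receptors and make the type 2 cytokines IL-5 and IL-13. All innate lymphoid cells depend on the inhibitor protein Id2, which blocks E proteins and so the B and T cell programmes. GATA3 and RORα are needed to make ILC2s, T-bet (encoded by *Tbx21*) and Eomes mark the ILC1 and natural killer (NK) branch, and TCF-1 (encoded by *Tcf7*) acts in early progenitors and in naive T cells. Runx proteins work in many lymphoid lineages, Sox4 is known from lymphoid progenitors, and Tox2 belongs to the Tox family of HMG-box factors.

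Each row is a listing, that is, a gene that the authors' table holds as higher on average in 1 cluster than in all other cells. Beside each listing stood 2 shares of cells in which the gene was above 0, that inside the cluster and that in all other cells. These shares are the authors' values, deposited to 3 decimals, so rounding alone moves each by up to 0.05 percentage points. The tables gave neither the cells per cluster nor the depth, so no counting interval was set. A listing rests on average level and not on the share, so a gene can be listed where its share was lower than outside. A gene without a listing may have been lower there, alike, too rare or not tested. In every listing of the ILC2 table at least 25.0% of cells on one side had the gene, so a gene below that share in each subcluster would have no listing whatever its pattern.

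Shares were not compared between the 2 tables. In the cell type table a value above 0 was found for *Eomes* in 64.8% and for *Sox4* in 50.2% of all sorted cells, and *Sox4* was above 0 in 2.46% of ILC2s in the other table. Which Seurat assay gave the cell type table was not stated, and its values may have been integrated across libraries. Of cells outside gdT_TypeIII_ITGAE, 83.3% had *Cd3e* above 0, although the type ILC2 alone made 43.2% of cells. Among ILC2s outside subcluster 5 the other table gave 4.7%. The 2 shares thus do not measure detection alike, and a value above 0 in a cell type need not be a detected transcript.

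Among the ILC2 subclusters, 1 listed more of these genes than any other. Subcluster 7, which held 1.42% of ILC2s by the sizes solved from the shares, listed 6 of the 8 genes in its table: *Sox4*, *Tox2*, *Runx3*, *Tcf7*, *Rora* and *Id2*. It listed 10.3% of all 2629 genes in the table. *Sox4* and *Runx3* had their only ILC2 listing there, so they count among the 8 only through subcluster 7. The genes were also chosen with earlier results known, so the count of 6 is a description and not support for a difference from 10.3%. The promoters of *Sox4*, *Tox2* and *Runx3* are shown because these 3 genes differed most in share between subcluster 7 and all other ILC2s. Each runs 5′ to 3′ on the gene's strand over the 250 bases before a RefSeq start site in GRCm38.p6. Capitals mark matches on either strand to GATAA for GATA factors, to TGTGGT for Runx factors, to CTTTGA for TCF factors and to ACAATG for Sox factors.
Sox4 promoter, chr13:28953700-28953949, minus strand: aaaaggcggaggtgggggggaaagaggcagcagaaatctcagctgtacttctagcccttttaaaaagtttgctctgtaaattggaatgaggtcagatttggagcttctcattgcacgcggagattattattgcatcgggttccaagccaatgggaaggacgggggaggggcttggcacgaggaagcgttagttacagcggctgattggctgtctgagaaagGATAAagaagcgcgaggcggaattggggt
Tox2 promoter, chr2:163202877-163203126, plus strand: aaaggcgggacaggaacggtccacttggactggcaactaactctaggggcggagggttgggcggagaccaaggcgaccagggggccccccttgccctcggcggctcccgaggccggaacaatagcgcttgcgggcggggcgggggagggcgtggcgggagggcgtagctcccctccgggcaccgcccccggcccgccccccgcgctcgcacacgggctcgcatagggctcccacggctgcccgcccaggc
Runx3 promoter, chr4:135120395-135120644, plus strand: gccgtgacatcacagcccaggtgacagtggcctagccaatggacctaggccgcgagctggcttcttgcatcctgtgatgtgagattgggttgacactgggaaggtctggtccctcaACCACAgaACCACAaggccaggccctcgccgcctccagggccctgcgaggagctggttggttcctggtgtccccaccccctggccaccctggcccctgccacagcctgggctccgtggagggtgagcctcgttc

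The *Sox4* window held 1 GATAA match, the *Runx3* window held 2 matches to TGTGGT, both as its reverse complement ACCACA, and the *Tox2* window held none of the 4 motifs. *Runx3* and *Tox2* have further start sites. The second *Runx3* site held no match, and GENCODE transcripts of *Runx3* hold the bases after the second site but not those after the printed one. Of the 5 *Tox2* sites the last pair, which overlap nearly whole, each held a CTTTGA match as TCAAAG. Of 32851 promoters of the same length, 22.6% held GATAA, 14.0% TGTGGT, 13.8% CTTTGA and 10.7% ACAATG. All 10 genes had an entry, with 17 start sites in all, of which 2 held a GATAA match, 1 a TGTGGT match, 2 a CTTTGA match and 0 an ACAATG match. Both CTTTGA matches were those of *Tox2*. A match is only a run of letters.

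The ILC2s with a value above 0 for each gene formed a wide range. *Id2* was above 0 in 97.4% of ILC2s, *Gata3* in 90.9%, *Rora* in 90.2%, *Runx3* in 55.6%, *Runx1* in 52.8%, *Tox2* in 25.9%, *Tcf7* in 25.5% and *Sox4* in 2.46%. These shares in all cells were solved from the listings, and for a gene with several listings the separate estimates lay within 0.0836 percentage points of each other. The median over the 8 genes was 54.2%, against 40.7% over all genes in the table. *Id2* had a larger share than 99.1% of the table's genes and *Gata3* than 95.9%, and *Sox4* had a larger share than only 0.038% of them. The neighbours *Gata3* and *Rora*, *Runx3* and *Runx1*, and *Tox2* and *Tcf7* lay within a few percentage points of each other, and without replicates none of these orders could be tested. Shares depend on how well each transcript is captured at its 3′ end, so they do not rank the genes by protein or by transcripts per cell.

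**Figure D1:**
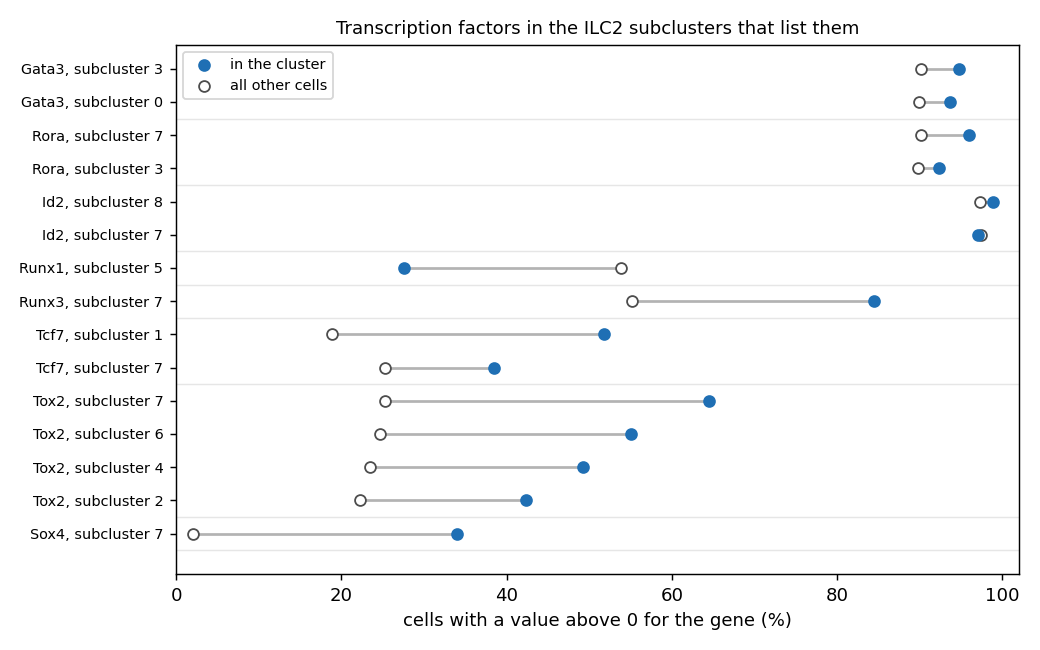
Cells (x axis, %) in which each transcription factor was above 0, for each ILC2 subcluster that lists it. Filled points are the cells of the subcluster and open points all other ILC2s: *Gata3*, *Rora* and *Id2* pairs lie close together at 89.8% or more, and *Sox4* in subcluster 7 goes from 2.0% outside to 34.0% inside.

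*Gata3*, the factor that defines type 2 lymphocytes (chr2:9857078-9890034 in GRCm38, minus strand), was listed for the large subclusters 3 and 0. It was above 0 in 94.8% of subcluster 3 against 90.2% of other ILC2s, and in 93.6% of subcluster 0 against 89.9%. The subclusters that did not list it, which together held 57.8% of ILC2s, still averaged 88.6%. *Gata3* was thus found in most cells with or without a listing, and the shares differed by 4.6 and 3.7 percentage points. Of 20 ILC2 programme genes, subcluster 3 listed 10 and subcluster 0 listed 7, while they listed 9.01% and 11.4% of all genes. *Hs3st1* was above 0 in 75.6% of subcluster 3 against 36.2% outside, and *Calca*, which encodes the neuropeptide CGRP, in 55.2% against 21.8%. In subcluster 0, *Hs3st1* stood at 56.8% against 36.5% and *Cd81* at 75.5% against 59.4%. Exactly these 2 subclusters also listed 43 other genes and no other subcluster did, and those nearest to *Gata3* in share were *Cnbp*, *Rabac1* and *Il1rl1*, the gene for ST2.

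*Rora*, which encodes RORα (chr9:68653786-69388246, plus strand), was listed for subclusters 7 and 3. Its share was 96.0% in subcluster 7 against 90.1% in other ILC2s, and 92.3% in subcluster 3 against 89.8%. The remaining subclusters averaged 89.7%. Subcluster 3 was the only one to list both *Gata3* and *Rora*. The 11 other genes listed for exactly the same pair of subclusters included *Lmo4*, *Samsn1* and *Rgs2*, the nearest in share.

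*Id2* (chr12:25093799-25097140, minus strand) was listed for the small subclusters 8 and 7. It was above 0 in 98.9% of subcluster 8 against 97.3% of other ILC2s. In subcluster 7 the share was slightly lower than outside, at 97.0% against 97.4%, so its listing there did not rest on the number of cells with it. It was the single listing of subcluster 7, out of 270, with a lower share inside. With *Id2* in nearly all ILC2s, the share had almost no room to separate subclusters. *Ubald2*, *Etv6* and *Ipmk* were nearest in share among the 5 other genes with the same listings.

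The Runx genes encode DNA-binding partners of CBFβ. *Runx3* (chr4:135120652-135177990, plus strand) was listed only for subcluster 7, where 84.5% of cells had it against 55.2% of other ILC2s, a ratio of 1.53. *Runx1* (chr16:92601466-92826149, minus strand) was listed only for subcluster 5, and there its share was 27.6% against 53.8% outside. Subcluster 5 held 3.87% of ILC2s and listed 38.0% of all genes, 1000 in all, of which 97.8% had a lower share inside than outside. The lower share of *Runx1* was thus like that of nearly all genes listed there. Of 15 T cell markers, 7 had a row, and subcluster 5 listed 5 of these, beside the 38.0% of all genes with a row. *Cd3e* stood at 32.0% against 4.7%, *Cd28* at 26.8% against 4.7%, *Trdc* at 25.6% against 7.0% and *Cd3g* at 39.5% against 32.6%, while *Trbc1* was lower inside at 45.0% against 81.0%. The part of such cells in the *Runx1* listing was not tested. The listings of *Runx1* and *Runx3* did not coincide.

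*Tcf7* (chr11:52252371-52283014, minus strand) separated the subclusters more clearly. In subcluster 1, which held 20.1% of ILC2s, 51.8% of cells had it against 18.9% of other ILC2s, a ratio of 2.74. In subcluster 7 it stood at 38.5% against 25.3%. The other subclusters, with 78.6% of ILC2s, averaged 18.6%. Subcluster 1 contained 40.7% of all ILC2s with *Tcf7*. The factor stood 16th of 363 listings of subcluster 1 by difference in share. This subcluster listed 13.8% of all genes and 5 of 20 genes of the naive and progenitor programme, 14 of the 20 having a row. *Klf2*, a factor that drives lymphocyte exit from tissue, was at 87.4% against 43.5%. Its target *S1pr1*, the receptor for sphingosine-1-phosphate, was at 50.5% against 9.9%. *Lef1*, the closest relative of *Tcf7*, was at 37.8% against 19.8%, and *Cd27* at 44.6% against 28.8%. *Castor1*, *Gem* and *Snx4* were nearest in share among the 9 genes listed for exactly the same subclusters as *Tcf7*.

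*Tox2* (chr2:163203125-163324170, plus strand) was the gene of the 8 with most listings among ILC2s, in subclusters 7, 6, 4 and 2. Its share was 64.5% in subcluster 7 against 25.3% outside, and 55.0% in subcluster 6 against 24.7%. In subcluster 4 it was 49.2% against 23.5%, and in subcluster 2 it was 42.3% against 22.2%. In each of the 4 the share was between 1.91 and 2.55 times that outside, while the 6 subclusters without a listing averaged 15.8%. The listing subclusters held 32.6% of ILC2s and 58.9% of the ILC2s with *Tox2*. In subclusters 7 and 6 it had the third largest difference in share, of 270 and 190 listings. Subcluster 4 listed 11 of 13 proliferation genes, the only ones of the 13 with a row, and 30.5% of all genes. *Mki67*, a marker of dividing cells, was at 54.7% against 15.0% there. Subcluster 6 listed 2 of those 13, *Top2a* at 49.0% against 29.6% and *Hmgb2* at 99.0% against 92.9%, beside 7.23% of all genes. Subcluster 2 listed 1, *Hmgb2*, beside 4.98% of all genes, and subcluster 7 listed 1, *H2afz*. The part of dividing cells in the *Tox2* listings was not tested. *Fabp5*, *Smco4* and *Pgk1* shared the same 4 subclusters, with 4 genes in all doing so.

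*Sox4* (chr13:28948919-28953713, minus strand) was the rarest of the genes among ILC2s and had the largest ratio of shares. It was above 0 in 34.0% of subcluster 7 and in 2.0% of all other ILC2s, a ratio of 17.0, or 16.6 to 17.5 when both shares are moved by their rounding. That was the largest ratio of shares among the 270 listings of subcluster 7. With 2.0% outside, *Sox4* could have a row only through a subcluster where it reached 25.0%. A large ratio was thus set by that floor and is not support for a pattern. This subcluster, with 1.42% of ILC2s, held 19.7% of those with *Sox4*. The larger listing subclusters of *Tox2* held 58.9% of its cells, and those of *Tcf7* held 42.8%. Its absence from other lists is not evidence of absence from those cells: the other subclusters averaged 2.0%, far below the 25.0% that every listing reached on one side.

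**Figure D2:**
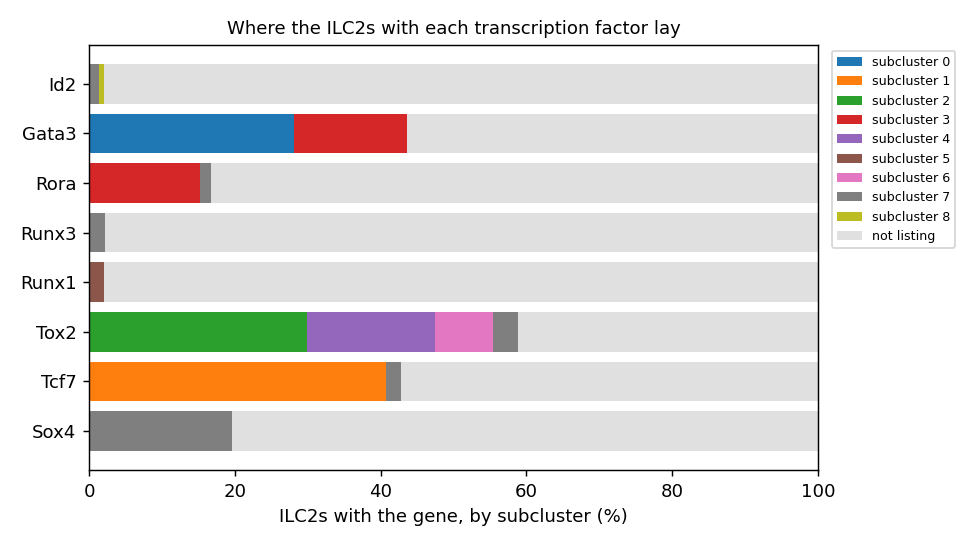
ILC2s with a value above 0 for each transcription factor, split by the subcluster they lay in (x axis, % of the cells with the gene), from solved cluster sizes and deposited shares. Coloured parts are listing subclusters and the pale part is all subclusters that do not list the gene: subcluster 1 holds 40.7% of *Tcf7* cells and subcluster 7 holds 19.7% of *Sox4* cells.

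Subcluster 7 thus had the same 6 factors at very different spreads. By difference from other ILC2s they ran from *Tox2* at 39.2 percentage points, through *Sox4* at 32.0, *Runx3* at 29.3, *Tcf7* at 13.2 and *Rora* at 5.9, to *Id2*, which was lower by 0.4. The median difference over all 270 listings of the subcluster was 23.1 percentage points, so 3 of the 6 were above it. Of 42 other lineage transcription factors, 18 had a row among the ILC2 subclusters. Subcluster 7 listed 9 of these, beside the 10.3% of all genes. *Zbtb16*, which encodes PLZF, a factor known from innate lymphoid precursors, was at 33.0% against 5.2%. *Cebpb* was at 77.5% against 50.5%, *Klf2* at 74.0% against 52.0% and *Tox*, a relative of *Tox2* needed by innate lymphoid precursors, at 56.5% against 35.8%.

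Cytokine genes were listed beside them. Subcluster 7 listed 6 of 20 ILC2 programme genes, with *Il13* at 60.5% against 36.6%, *Areg* at 62.0% against 39.2%, *Il4* at 41.5% against 22.3% and *Il5* at 46.5% against 28.1%. *Gata3* and *Il1rl1* were not among its listings. Genes of other cells were also on its list. The 10.3% is a share of genes with a row among the ILC2 subclusters. Of 11 myeloid markers 3 had such a row, of 15 T cell markers 7 and of 20 type 1 genes 8. Subcluster 7 listed 3 myeloid markers: *Cebpb*, *Fcer1g* at 32.0% against 5.2% and *Tyrobp* at 26.5% against 3.2%. It listed 2 of 15 T cell markers, *Tcrg-C1* at 42.0% against 25.8% and *Trbc1* at 86.5% against 79.5%. Of 20 type 1 genes it listed 3, which were *Nkg7* at 40.0% against 13.0%, *Txk* at 45.0% against 18.1% and *Ctsw* at 42.5% against 23.4%. The sort had removed cells with surface CD11b, and cells with genes of other types had been left out before the ILC2s were clustered again. The part of such cells in the listings of the 6 factors was not tested, and neither was that of single libraries.

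**Figure D3:**
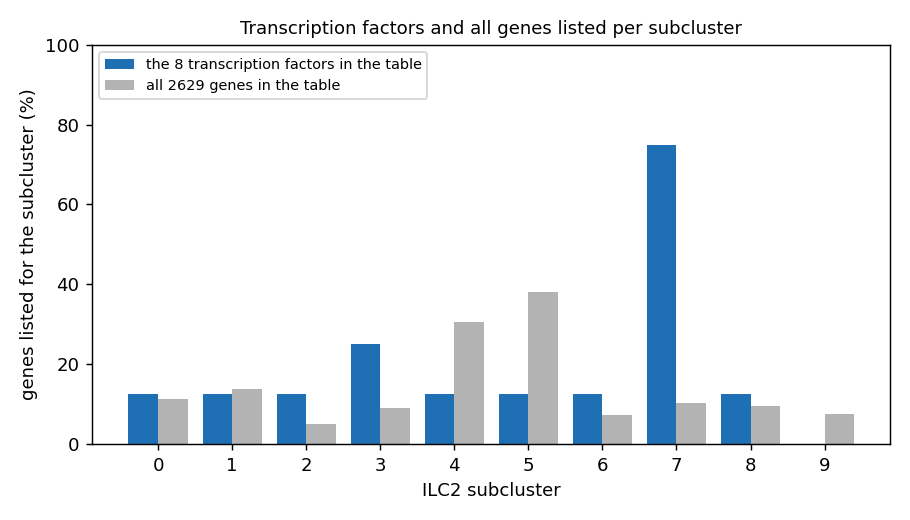
Share of the 8 transcription factors (blue) and of all 2629 genes in the table (grey) that each ILC2 subcluster lists (y axis, %; x axis, subcluster). Subcluster 7 lists 6 of the 8 factors and 10.3% of all genes, and no other subcluster lists more than 2 of the factors. *Sox4* and *Runx3* are among the 8 only through subcluster 7.

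Subcluster 3 listed 2 of the 8 genes, and subclusters 0, 1, 2, 4, 5, 6 and 8 listed 1 each. The shares of all genes were 9.01% in subcluster 3, 11.4% in 0, 13.8% in 1, 4.98% in 2, 30.5% in 4, 38.0% in 5, 7.23% in 6 and 9.62% in 8. Subcluster 9 listed none of the 8, beside 7.57% of all genes. With 8 genes, a count of 0 or 1 says nothing about them beside shares of this size. Of the 8 genes, 5 were listed for at least 2 subclusters, against 29.2% of all genes in the table. Of the 15 listings, 2 had a lower share inside the subcluster than outside, against 29.4% of all listings. Most of the latter were in subcluster 5: without it, 1 of 14 was lower, against 4.52% of all listings. The median difference over the 15 was 13.2 percentage points, against 13.3 over all listings, and without subcluster 5 it was 16.65 against 18.2.

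The table of sorted cells named 21 types and the 8 genes had 28 listings in 18 of them. A gene was listed for a median of 3 types among the 8, against 2 among all genes in the table. The types Basophil, CD8_Effector and Plasma cell listed none of the 8, beside 16.4%, 5.60% and 12.2% of all genes. The type named ILC2, with 43.2% of cells, listed all 7 ILC2 markers (*Gata3*, *Il1rl1*, *Klrg1*, *Il13*, *Il5*, *Areg* and *Il17rb*), each with a higher share inside, *Gata3* being 1 of the 7. Many T cell types were present although the sort had removed cells with surface CD3e and TCRb.

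*Gata3* was listed for ILC2, where it was above 0 in 93.0% of cells against 60.2% of all others, and for the type named gdT_TypeII at 97.6% against 74.0%. The 19 types without a listing averaged 59.1%. The type named gdT_TypeII, which held 1.58% of cells, listed 28 genes, or 1.67% of all in the table, and 0 of 15 T cell markers, a count that so short a list could give for any 15 genes. The T cell markers could therefore not check the name of this type. It listed 3 of 7 ILC2 markers: *Gata3* itself, *Il1rl1* at 95.3% against 65.6% and *Areg* at 46.3% against 44.0%. Of 20 ILC2 programme genes it listed 5, beside the 1.67% of all genes. *Prnp*, *Phlda1* and *Bmp2* were the only other genes listed for exactly these 2 types.

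*Rora* had the most listings of the 8, in 7 types. In ILC1_ILC3 it was above 0 in 97.8% of cells against 81.2% outside, and in ILC2 in 93.0% against 72.4%. The types gdT_TypeIII_ITGAE and gdT_TypeIII_CD163l1 stood at 91.8% and 91.7%, both against 81.1%, and ILC3 at 90.1% against 81.1%. In ILC2_2 the share was lower inside, at 77.6% against 81.3%, and in Treg too, at 76.2% against 81.4%. The type named ILC3 listed 5 of 10 T cell markers, *Cd3e* among them, 4 of the 5 with a higher share inside, which goes against its name. *Maf*, *Nrip1* and *Cxcr6* had the listings most like those of *Rora*, with a Jaccard index (types shared over types in either) of 0.75, 0.71 and 0.71.

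*Id2* was listed for ILC1_ILC3 at 98.9% against 88.1%, for ILC2 at 98.6% against 80.3% and for ILC1 at 97.5% against 87.7%. The other types averaged 78.4%. All 3 are named as innate lymphoid types, but ILC3, ILC2_2 and NK did not list it. *Serpina3g* shared exactly these 3 types. ILC2 and ILC1_ILC3 listed 3 of the 8 genes each, ILC2 with *Gata3*, *Rora* and *Id2* and ILC1_ILC3 with *Rora*, *Tcf7* and *Id2*. They listed 8.1% and 13.4% of all 1679 genes in the table.

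**Figure D4:**
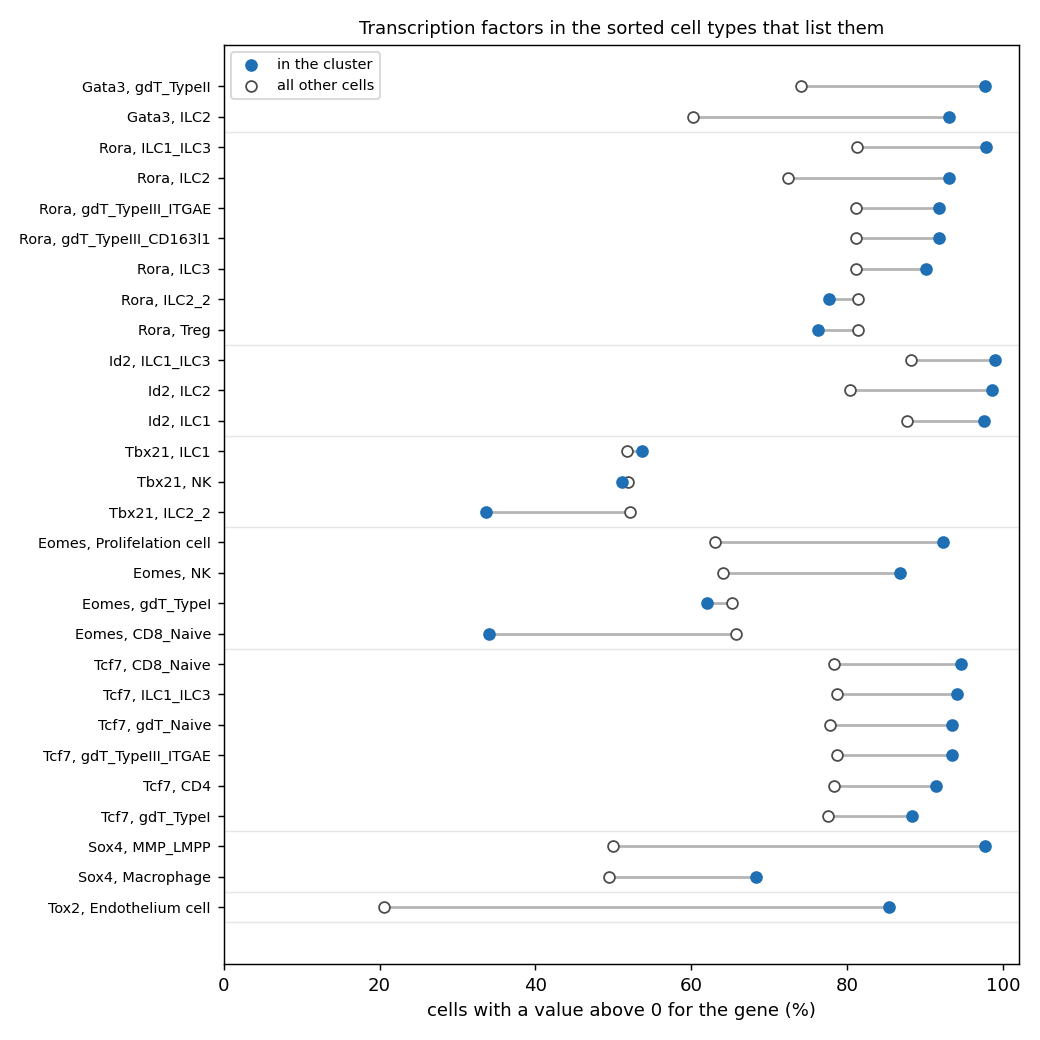
Cells (x axis, %) in which each transcription factor was above 0, for each sorted cell type that lists it. Filled points are the cells of the type and open points all other sorted cells: *Tox2* in the endothelium type and *Sox4* in MMP_LMPP are farthest apart, and 6 of 28 filled points lie left of their open points.

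*Tcf7* was listed for 6 types, 5 of them named as T cells. The shares were 94.6% in CD8_Naive against 78.3% outside, 93.4% in gdT_Naive against 77.8%, and 91.3% in CD4 against 78.3%. In gdT_TypeI they were 88.3% against 77.5%, in gdT_TypeIII_ITGAE 93.4% against 78.6%, and in ILC1_ILC3 94.0% against 78.7%. *Tcf7* had the sixth largest difference among the 149 listings of gdT_Naive. CD8_Naive and gdT_Naive listed all 4 naive T cell markers with a higher share inside, *Tcf7* being 1 of the 4. *Arap2*, *Plcxd2* and *Ms4a6b* had listings most like those of *Tcf7*, with indices of 0.67, 0.67 and 0.625.

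*Tbx21* (chr11:97098071-97115331, minus strand) and *Eomes* (chr9:118478212-118486132, plus strand), the pair of T-box factors of type 1 lymphocytes, shared 1 type, NK. *Tbx21* was above 0 in 53.7% of ILC1 against 51.7% of other cells, in 51.1% of NK against 51.8%, and in 33.6% of ILC2_2 against 52.1%. Its share thus hardly separated ILC1 and NK from the rest, and in ILC2_2 it was lower inside. *Eomes* was above 0 in 86.7% of NK against 64.0%, and in 92.2% of the type spelled Prolifelation cell against 63.0%. In gdT_TypeI its share was 62.0% against 65.2%, and in CD8_Naive 34.1% against 65.7%. ILC1 did not list *Eomes*. NK listed all 8 NK and ILC1 markers, 7 with a higher share inside, and ILC1 listed 6, but *Tbx21* counts among both and *Eomes* among those of NK. *Samd3*, *Sulf2* and *Itm2a* were most like *Tbx21* (indices of 0.75, 0.67 and 0.67), and *Klra3*, *Tfam* and *Dbf4* most like *Eomes* (0.75, 0.75 and 0.67).

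*Sox4* and *Tox2* had 3 listings in this table, none in a type named as innate lymphoid. *Sox4* was above 0 in 97.6% of MMP_LMPP, a type named for multipotent progenitors, against 50.0% of other cells. It was above 0 in 68.3% of the type named Macrophage against 49.4%. The type named Macrophage listed 5 of 11 myeloid markers, *Lyz2* and *Cd68* among them, but also the B lineage markers *Ighm* and *Cd79b*. Its name was not settled by these. MMP_LMPP held 0.387% of cells. It listed the progenitor markers *Cd34* and *Kit* but also the B lineage markers *Ighm*, *Cd79a* and *Cd79b*, so progenitor and early B lineage cells cannot be told apart there. Its other listed factors included *Ebf1*, the B lineage factor, at 94.3% against 23.3% and *Irf4* at 98.4% against 32.2%. *Net1*, *Trim30a* and *Cyp51* were nearest in share among 12 genes listed for the same 2 types as *Sox4*. *Tox2* was listed only for the type named Endothelium cell, at 85.3% against 20.6%, a ratio of 4.14, and this type listed *Cdh5* and *Pecam1* of 3 endothelial markers. *Gata2*, which works in endothelium and mast cells, was listed there at 84.5% against 6.5%.

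Of the 28 listings, 6 had a lower share inside the type than outside, against 16.3% of all listings in the table. The 6 were those of *Eomes* in gdT_TypeI and CD8_Naive, *Rora* in ILC2_2 and Treg, and *Tbx21* in NK and ILC2_2. Of the 8 genes, 7 were listed for at least 2 types, against 62.2% of all genes. The median difference over the 28 was 13.9 percentage points, against 18.4 over all listings. Some of these genes overlap others on the mouse genome: *Gata3*, *Rora*, *Runx1*, *Runx3*, *Tcf7*, *Sox4* and *Eomes* each overlap at least 1 annotated gene on the opposite strand, and *Gata3* and *Tcf7* also 1 on the same strand, whose reads the counting may have divided.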

How the data were processed

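Cells from 4 libraries were sequenced by droplet-based counting of transcript 3′ ends. The authors aligned reads with Cell Ranger to mm10, normalised, clustered and annotated the cells in Seurat, left out cells with markers of other types before clustering the ILC2s again, and deposited 1 table of markers for 21 cell types and 1 for 10 ILC2 subclusters. The deposited columns used here are fractions: how much of a cluster, and of all other cells, had the gene above 0, over all libraries pooled. The other deposited columns hold the authors' log2 fold changes, all positive, with p-values and adjusted p-values from Seurat's marker function, whose test was not stated, and were not used.

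Cluster sizes were solved by least squares with numpy 2.4.6 from genes listed for at least 2 clusters, since the share outside plus the size times the difference equals the share in all cells. Sizes summed to 100.05% of cells over the 21 types and 100.2% over the 10 subclusters. The share in all cells and the mean over clusters not listing a gene followed from them. The solution was tested on simulated data. With 1 library per group and cells that are not replicates, no test or p-value was computed, and 0 columns held values of a single sample.

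The 10 genes and all gene lists were chosen with earlier results of these data known. The genes named were the 10, up to 4 of each list with the largest differences in the clusters described, and up to 3 genes whose listing clusters were most like those of each of the 10. *Mki67* and the markers that check the name of a type fell outside this rule and were added after their values were seen. Gene positions came from GENCODE vM21 and promoters from RefSeq, both on GRCm38, the assembly that mm10 names. The authors report removing doublets and dead cells by flow cytometry. Doublets could not be examined here without cells.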

Additional observations from a re-analysis of the deposited data

How the results depend on the processing

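Alternatives changed 1 choice at a time. Sizes constrained to sum to 1, or solved from genes listed for at least 3 clusters, moved no size by more than 0.032 percentage points. For shares in all cells only the sum to 1 was tried, and it moved none by more than 0.0044. Both alternatives, and the largest listing cluster used alone, moved no mean over unlisted clusters by more than 0.0784. The 28 listings in cell types became 22 when the share inside had to be higher and 19 when it had to be at least 10 percentage points higher. The 15 among ILC2 subclusters became 13 and 8. In cell types the listings of *Tbx21* went from 3 to 1 and 0, those of *Eomes* from 4 to 2 under both settings, and those of *Rora* from 7 to 4 under the last. Among ILC2 subclusters *Runx1* lost its listing and *Id2* kept 1 under the first. Under the last setting *Gata3*, *Rora*, *Id2* and *Runx1* had no ILC2 listing, and subcluster 7 listed 4 of the genes instead of 6. Leaving out subcluster 5, an alternative chosen after seeing the data, took the ILC2 listings with a lower share inside from 2 to 1. No paired analysis was possible because no value belonged to a single library. The tables held no cell numbers or depth, so no share has a counting interval, and the smallest clusters rest on the fewest cells.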
